A study of Mus musculus with 2 samples.

Results

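The genes described here are 44 genes of apoptosis and related cell death: the BCL2 family, caspases and their cofactors, inhibitors of apoptosis proteins (IAPs), death receptors with their adaptors, and *Trp53* with *Mdm2*. They were chosen by symbol, beside 22290 genes in all that have a probe and a name in a RefSeq gene table, and the rule that picks them uses no measured value. 12 of them were put on a pro-survival side, 24 on a pro-death side, and 8 were given no side. The samples were untreated cultured 4T1 cells, a mammary carcinoma line from BALB/C mice, sorted by the activity of aldehyde dehydrogenase (ALDH), which the ALDEFLUOR reagent turns into fluorescence. The ALDH-positive population (named cancer stem cell, S, in the labels) and the ALDH-negative population (anti cancer stem cell, NS) were each hybridized to 1 Agilent 1-colour mouse array with probes of 60 bases. Since each population had a single array, no replicate check, test or p-value could be had, and nothing here separates a difference between the populations from a difference between these 2 RNA samples.

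Apoptosis through mitochondria is controlled by protein contacts within the BCL2 family. BH3-only proteins sense damage or loss of signals and either engage the pore formers BAX and BAK or occupy the anti-apoptotic proteins BCL2, BCL-XL and MCL1 that hold them in check. Once the outer membrane opens, cytochrome c assembles APAF1 and caspase-9 into the apoptosome, while SMAC (the product of *Diablo*) and HTRA2 relieve the block that XIAP places on caspases. Death receptors such as FAS reach caspase-8 through the adaptors FADD and TRADD, a step that cFLIP (the product of *Cflar*) restrains. Much of this control acts on proteins that already exist, and the arrays measured mRNA only.

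None of the 44 genes met the limits for a higher or lower signal in the ALDH-positive population, and the pro-survival and pro-death sides both had a median log2 ratio close to 0. Higher means a Z-score of at least 2.0 with a ratio of at least 1.5, and lower a Z-score of at most -2.0 with a ratio no greater than 0.75, which are the limits of the paper's methods. The Z-score was taken here against the 250 nearest probes above and the 250 below in mean log2 signal, since the methods do not define it. All signals are quantile-normalized intensities, and all ratios set ALDH-positive over ALDH-negative cells. Of the 44 genes, 37 were well above background on both arrays, *Casp12* on 1 array, 5 on neither array, and *Bcl2a1a* had no probe under its own name. The count of 0 among 38 measured genes stands beside 1.32% of all 14048 measured genes that were higher and 2.06% that were lower, 3.38% together. Of the 37 above background on both arrays none was called either, beside 2.27% of 13232 such genes (0.801% higher and 1.47% lower). At those shares about 1 of 38 genes would be called, so the count alone does not set these genes apart.

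The median log2 ratio was 0.0014 over the 10 measured pro-survival genes (range -0.20 to 0.20) and 0.022 over the 22 measured pro-death genes (range -0.21 to 0.74). The pro-survival median minus the pro-death median was -0.020. Over all measured genes the median was 0.045, with quartiles of -0.084 and 0.18, so both medians lay inside the middle of the whole array. The pro-survival genes divided evenly, with 5 above 0 and 5 below, and 14 of the 22 pro-death genes (63.6%) lay above 0 beside 60.5% of all measured genes. The error beside each log2 ratio was propagated from the signal errors that the scanner software wrote. It cannot fall below about 0.20 for bright probes and leaves out any spread from culture to culture. Every pro-survival gene lay within its own error of 0, as did 15 of the 22 pro-death genes (68.2%) and 66.9% of all measured genes. *Birc2* (0.2043, error 0.2046) and *Xiap* (-0.2009, error 0.2041) did so narrowly. Of all 38 measured genes, 10 (26.3%) lay farther from 0 than their error, beside 33.1% of all measured genes. A ratio of at least 1.5, leaving the Z-score aside, was seen for 2 of the 38 (5.26%), *Bmf* and *Casp12*, beside 5.05% of all genes, and a ratio at or under 0.75 for none, beside 6.21%.

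**Figure D1:**
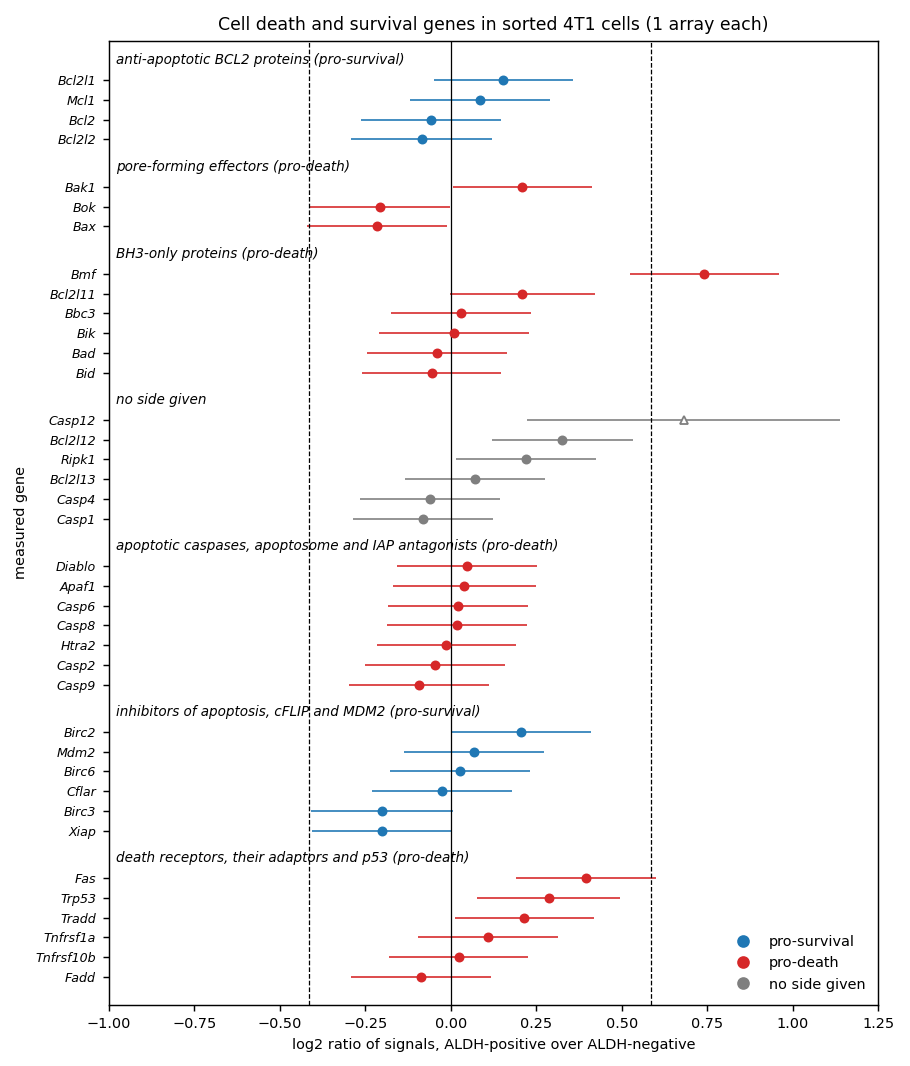
Log2 ratio of signals, ALDH-positive over ALDH-negative cells (horizontal axis, 1 array each) for the 38 measured genes, grouped by role, with bars for the propagated scanner error and dashed lines at the ratios 0.75 and 1.5. The open triangle is *Casp12*, below background in ALDH-negative cells. *Bmf* at 0.74 and *Casp12* at 0.68 lie beyond the upper dashed line and no gene lies beyond the lower one.

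The anti-apoptotic BCL2 genes had nearly equal signals in both populations. *Mcl1*, which encodes a short-lived guardian that binds BAK and BIM, read 5732 in the ALDH-negative and 6079 in the ALDH-positive population (the order kept for all pairs of signals), a log2 ratio of 0.085 (error 0.20). Its other probe read 2641 and 2725, a log2 ratio of 0.045. *Bcl2l1*, the gene of BCL-XL, had the highest log2 ratio of this group, 0.15 (ratio 1.11, error 0.20, Z-score 0.75), with signals of 13560 and 15086. Its dimmer probe pointed the other way, at 142 and 135, a log2 ratio of -0.079. *Bcl2l2*, which encodes BCL-W, had the lowest, -0.085 (ratio 0.943, error 0.21, Z-score -0.29), with signals of 229 and 216. *Bcl2*, the founding gene of the family, lay between them at 701 and 674, with a log2 ratio of -0.057 (error 0.20). The 4 genes thus spanned 0.15 to -0.085, and each lay within its error of 0.

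BCL2A1, the remaining anti-apoptotic protein, is encoded in the mouse by near-identical gene copies. The array carried 1 probe under the name *Bcl2a1d* whose accession list names the transcripts of *Bcl2a1d*, *Bcl2a1b* and *Bcl2a1a*, so the copies could not be told apart and *Bcl2a1a* is covered only by this shared probe. It lies on NCBI37 at chr9:88618165-88618224. Its first 30 bases are shown because they stand for all the listed copies:
Bcl2a1d: cacttggcatttccatttacaaacatgaaa
Its signals were 2.79 and 2.78, below background on both arrays, so no ratio is given.

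The 3 pore-forming genes all sat just past their error, in opposite directions. *Bax* read 8414 and 7250 (log2 ratio -0.21, ratio 0.862, error 0.20, Z-score -1.20). *Bok*, whose product forms pores without the usual triggers, read 9281 and 8040 (log2 ratio -0.21, ratio 0.866, error 0.20, Z-score -1.13). *Bak1*, the gene of BAK, read 6634 and 7670 (log2 ratio 0.21, ratio 1.16, error 0.20, Z-score 1.14). Each of the 3 was measured with 1 probe printed once, so none had a second reading. Under the other processing choices *Bax* ranged from -0.21 to -0.13, *Bok* from -0.21 to -0.12 and *Bak1* from 0.16 to 0.30, with no change of sign.

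Among BH3-only genes, *Bmf* came closest to being called. BMF binds anti-apoptotic BCL2 proteins and is known for its part in death of epithelial cells that lose their attachment. The *Bmf* signal was 61.3 in the ALDH-negative and 103 in the ALDH-positive population, a ratio of 1.67 and a log2 ratio of 0.74 (error 0.22). Its Z-score of 1.99 missed the limit of 2.0. With a shift to a common 75th percentile in place of quantile normalization the log2 ratio was 0.67 with a Z-score of 2.05, and with 100 probes on either side the Z-score was 2.21, and under both choices *Bmf* was called higher. With normexp background correction (offset 50) the log2 ratio was 0.42 and the Z-score 1.65, and without background correction they were 0.40 and 1.58. The log2 ratio of *Bmf* ran from 0.40 to 0.74 over 8 ways of computing it, with no change of sign. Several of these only choose among probes or array regions and could not move a gene read by 1 spot. Its call depended on the normalization and on the window of the Z-score. *Bmf* was read by 1 spot, outside the last rows and columns of the array, with a probe on NCBI37 at chr2:118354496-118354555. Its first 30 bases are given because the only value near the limits rests on them:
Bmf: catgtgtaaatatcctctcatccatcaagt

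The other BH3-only genes had log2 ratios near 0 or rested on probes that disagreed. *Bbc3*, which encodes the p53-induced protein PUMA, read 2943 and 3003 (log2 ratio 0.029, error 0.20). *Bid*, whose product caspase-8 cleaves to link death receptors to mitochondria, had the lowest log2 ratio of the group, -0.056 (ratio 0.962, error 0.20, Z-score -0.17), with signals of 2670 and 2568. *Bik* read 68.3 and 68.7 (log2 ratio 0.0097, error 0.22). *Bad*, whose product is silenced by survival kinases, had signals of 6636 and 6451 with its brighter probe, a log2 ratio of -0.041, and 435 and 347 with its dimmer one, a log2 ratio of -0.33 (error 0.20 each). *Bcl2l11*, the gene of BIM, gave a log2 ratio of 0.21 (error 0.21) from signals of 122 and 141. Its second probe gave -0.44 (error 0.33) from signals of 28.5 and 20.9, so the sign of *Bcl2l11* depends on which probe is read. *Pmaip1*, which encodes NOXA, had signals of 3.27 and 3.24, and *Hrk* had 4.72 and 8.73. Both genes were below background on both arrays and have no usable ratio.

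**Figure D2:**
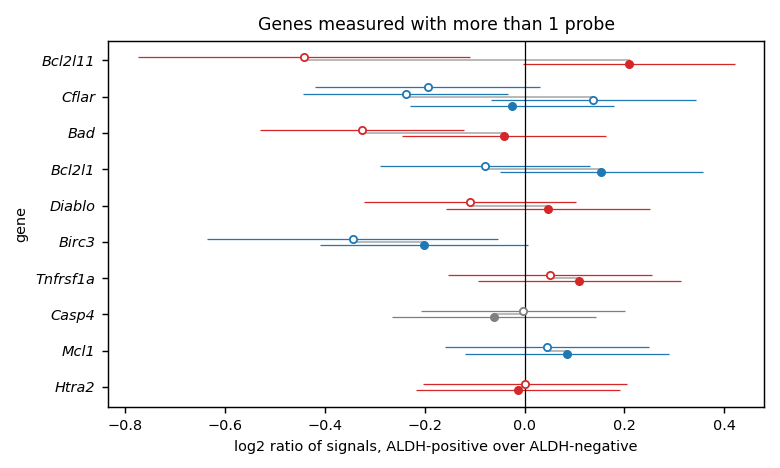
Log2 ratio of signals, ALDH-positive over ALDH-negative cells (horizontal axis) for the 10 genes with more than 1 measured probe, with the brightest probe filled, the others open, and bars for the propagated scanner error (blue pro-survival, red pro-death, grey no side). The probes of *Htra2* and *Mcl1* nearly coincide, while those of *Bcl2l11* lie 0.65 apart on both sides of 0.

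Probes of the same gene give a measure of how far a single value can be trusted. Those of *Bcl2l11*, *Birc3* and *Cflar* are annotated to different transcript records, and the part of this in their differences was not tested. In 10 of the genes 2 or more probes were measured, and the highest and lowest log2 ratio of a gene differed by a median of 0.15, from 0.013 for *Htra2* to 0.65 for *Bcl2l11*. In 5 of these genes all probes had the same sign, and in 5 they did not. The clearest case is *Casp4*, whose probes are shifted by 5 bases and share 55 of 60. They are placed on NCBI37 at chr9:5336658-5336717 and chr9:5336663-5336722, and their first 30 bases are shown with the shared part in capitals:
Casp4, first probe: ccagcCTAAGCAACACAGTGGGATTCTGTT
Casp4, second probe: CTAAGCAACACAGTGGGATTCTGTTCCATA
The first read 554 and 531, a log2 ratio of -0.061, and the second 408 and 407, a log2 ratio of -0.0028. Nearly identical oligos thus differed by 0.059 in the log2 ratio.

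Repeated spots gave a further measure. *Tnfrsf1a* had a probe printed 10 times, whose signals before normalization ran from 1876 to 2123 on the ALDH-negative array (SD 0.050, log2) and from 3084 to 3248 on the ALDH-positive array (SD 0.023). The *Fas* probe was printed 2 times, at 359 and 360 against 652 and 684, and the *Trp53* probe 2 times, at 104 and 113 against 174 and 180. In each of these genes the spots of one array did not overlap those of the other before normalization. Other repeated probes were not compared in this way, and neither were the spots after normalization. The whole array of ALDH-positive cells was brighter, however, by a median log2 ratio of 0.49 over measured probes before normalization. The 38 measured genes had a median of 0.56 at that stage, and all lay above 0, from 0.22 to 1.13. The share of all genes above 0 at that stage was not taken. Over probes with 9 or 10 usable spots the median SD was 0.059 and 0.048 on the arrays, which gives 0.076 for a log2 ratio.

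The initiator and executioner caspases and their cofactors formed the tightest role group, with log2 ratios from -0.093 to 0.047 over 7 measured genes. *Casp9*, the caspase of the apoptosome, had the lowest value, with signals of 1061 and 995, a log2 ratio of -0.093 (ratio 0.938, error 0.20, Z-score -0.45). *Apaf1*, its scaffold, read 142 and 146 (log2 ratio 0.040, error 0.21). *Diablo* had the highest value, with signals of 1068 and 1104, a log2 ratio of 0.047 (ratio 1.03, error 0.20, Z-score 0.26), and its dimmer probe gave -0.11. *Casp8*, the initiator behind death receptors, read 2649 and 2684 (log2 ratio 0.019, error 0.20). The executioner gene *Casp6* read 1833 and 1860, a log2 ratio of 0.021, and *Casp2*, an initiator linked to genotoxic and mitotic stress, read 2123 and 2056, a log2 ratio of -0.046. *Htra2*, which encodes a mitochondrial protease, read 16645 and 16499 (log2 ratio -0.013). All 7 lay within their error of 0.

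The IAP genes that restrain caspases or modify death receptor signalling held both signs. *Xiap*, whose product blocks caspases directly, had signals of 1593 and 1386, the lowest log2 ratio of the group at -0.20 (ratio 0.870, error 0.20, Z-score -0.97). The neighbouring genes *Birc2* and *Birc3*, which encode the ubiquitin ligases cIAP1 and cIAP2, lay on opposite sides of 0. *Birc2* had the highest value, with signals of 330 and 380, a log2 ratio of 0.20 (ratio 1.15, error 0.20, Z-score 0.79). *Birc3* read 141 and 123 (log2 ratio -0.20, error 0.21), and -0.34 (error 0.29) with its dimmer probe. *Birc6*, which encodes a giant ubiquitin ligase, read 734 and 748, a log2 ratio of 0.027.

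*Cflar* was read by 4 probes, of which the brightest read 493 and 485 (log2 ratio -0.025, error 0.20). The others gave 0.14, -0.24 and -0.19, and the last of these share a transcript in the array annotation that differs from those of the other probes. *Mdm2*, whose product marks p53 for degradation, read 7435 and 7792 (log2 ratio 0.068, error 0.20). Its partner *Trp53* read 125 and 153 (log2 ratio 0.29, error 0.21, Z-score 0.89), past its own error but not called.

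The group of death receptors, their adaptors and *Trp53* had the highest median of the pro-death groups, 0.16. In it 5 of 6 genes (83.3%) lay above 0, *Trp53* among them, beside 60.5% of all measured genes. *Fas*, a receptor that recruits FADD and caspase-8 when bound by its ligand, had signals of 426 and 560.1. Its ratio was 1.32 and its log2 ratio 0.40 (error 0.20), the second highest among pro-death genes, with a Z-score of 1.67. It stayed between 0.35 and 0.43 under the other choices and was called under none of them. *Tradd*, the adaptor of TNF receptor 1, read 3804 and 4416 (log2 ratio 0.22, error 0.20). *Tnfrsf1a*, the gene of that receptor, read 2414 and 2605 (log2 ratio 0.11, error 0.20), with 0.050 for its other probe. *Tnfrsf10b*, which encodes the mouse TRAIL receptor, read 3010.2 and 3058 (log2 ratio 0.023), and *Fadd* had the lowest value of the group, with 657 and 619, a log2 ratio of -0.086 (ratio 0.942, error 0.20, Z-score -0.34).

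The genes given no side held the second gene past a ratio of 1.5. *Casp12*, a caspase of the inflammatory cluster, had a signal of 13.4, not well above background, in the ALDH-negative population and of 21.5 in the ALDH-positive one. Its ratio was 1.60, with a Z-score of 0.57. The fold set for dim probes gave this same ratio, because the dim signal exceeded the lowest signal well above background there, 10.3. The log2 ratio of 0.68 had an error of 0.46, and with normexp background correction it was 0.15, so this value rests on how the background is treated. *Casp1* and *Casp4*, its neighbours on chromosome 9 and known for pyroptosis, had log2 ratios of -0.080 and -0.061, and *Casp1*, the lowest of these genes, had signals of 874 and 827 (ratio 0.946, error 0.20, Z-score -0.42). *Bcl2l12* read 285 and 358 (log2 ratio 0.33, error 0.21, Z-score 1.27). *Ripk1*, a kinase that can direct TNF receptor signals to survival or death, read 456 and 531 (log2 ratio 0.22, error 0.20). *Bcl2l13*, a mitochondrial protein linked to mitophagy, read 381 and 401, a log2 ratio of 0.072. *Ripk3*, which drives necroptosis, had signals of 2.72 and 2.71 and was below background on both arrays, as were both probes of *Bcl2l14*.

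**Figure D3:**
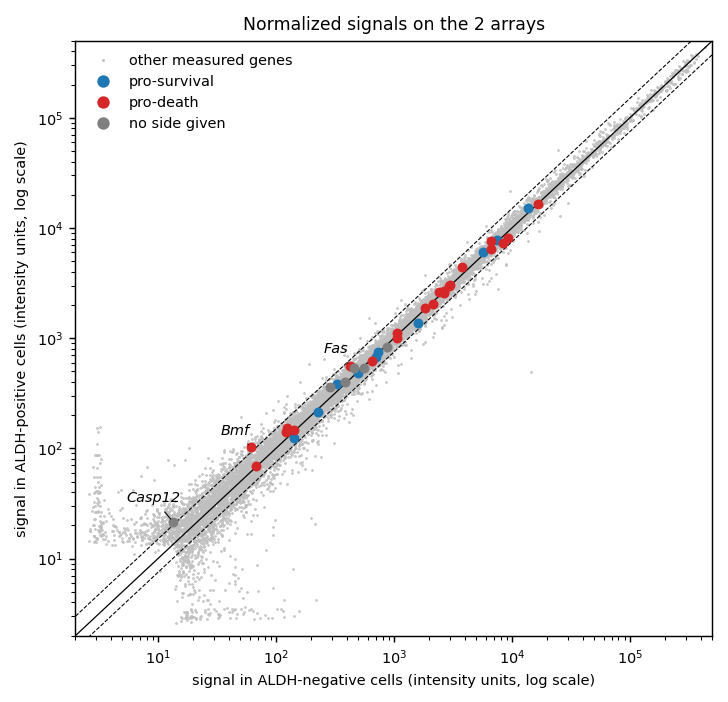
Normalized signal in ALDH-positive (vertical axis) against ALDH-negative 4T1 cells (horizontal axis), both in intensity units on log scales, for all measured genes (small grey points) and the 38 measured cell death and survival genes (large points by side). The solid line marks equal signals and the dashed lines the ratios 0.75 and 1.5. *Bmf* and *Casp12* lie above the upper dashed line, and the other large points lie between the dashed lines.

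The log2 ratios of 12 pairs of protein partners, most of them opposed and some acting together, were also subtracted, which cancels the brightness of the arrays. These pairs were chosen after the values were seen. In 10 of 12 pairs the difference was within the combined error. The difference of *Bcl2* minus *Bax* was 0.16 (error 0.29), that of *Mcl1* minus *Bak1* was -0.12, that of *Xiap* minus *Diablo* was -0.25, and that of *Cflar* minus *Casp8* was -0.043. Past the combined error were *Bcl2l1* minus *Bax*, 0.37 (error 0.29), and *Fadd* minus *Fas*, -0.48 (error 0.29), an adaptor and its receptor that act together. The first of these used the brighter *Bcl2l1* probe, and the dimmer one had the opposite sign.

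Several of these genes adjoin each other in the mouse genome. In a gene table of assembly GRCm38.p6, the neighbours among protein-coding genes were *Cflar* and *Casp8* on chromosome 1, *Bcl2l13* and *Bid* on chromosome 6, and *Casp1*, *Casp4* and *Casp12* as well as *Birc2* and *Birc3* on chromosome 9. Their log2 ratios were -0.025 and 0.019 for *Cflar* and *Casp8*, and 0.072 and -0.056 for *Bcl2l13* and *Bid*. Of these adjoining genes only *Casp1* and *Casp4* had log2 ratios of the same sign with both genes measured on both arrays.

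The study centres on CLOCK, which binds the E-box CACGTG, so promoters of these genes were searched for that motif, a choice made after the values were seen. The windows ran from 250 bases before to 50 after each gene's start in RefSeq (GRCm38.p6), and the motif reads the same on both strands. It was present in 6 of the 39 genes that had such a window (15.4%), beside 8.09% of 27025 genes and 7.15% of 32851 windows. A match is a description of the letters and does not show binding. The 30-base windows of the 5 measured genes are given 5' to 3' on the gene's strand with the motif in capitals:
Bbc3, chr7:16310355-16310384: gcggggcgggcgCACGTGgcggcgtcgagg
Bax, chr7:45466890-45466919: agcgatgatgatCACGTGactagtcctgcg
Bax, chr7:45466849-45466878: atgttgcggggcaccCACGTGagggccgca
Casp1, chr9:5298368-5298397: ctgcagcagaaaCACGTGtggcagccttcc
Trp53, chr11:69580357-69580386: actttcccctccCACGTGctcaccctggct
Fas, chr19:34290537-34290566: aaaagtgacataCACGTGttcaaagcgatt
Their log2 ratios ran from -0.21 for *Bax* to 0.40 for *Fas*, with a median of 0.029. The 29 measured genes whose windows lack the motif had a median of 0.027 and ran from -0.21 to 0.74. The genes with the motif lay inside that range except for *Bax*, just below the lowest gene without the motif. The highest value, that of *Bmf*, belonged to a gene without the motif. The sixth gene with the motif was *Ripk3*, below background on both arrays.

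Other genes of the pathway were taken from 8 lists with 58 names, which include both names of 1 gasdermin gene. Of these, 47 genes were measured, and none was called in either direction, beside 3.38% of all measured genes. The median log2 ratio was 0.053, with 32 above 0 (68.1%, beside 60.5% of all measured genes). *Cycs*, the gene of cytochrome c, had a log2 ratio of 0.012 (error 0.20). Among 14 measured p53 targets the median was 0.061, and *Cdkn1a*, the cell cycle inhibitor gene most used as a readout of p53, read 668 and 642, a log2 ratio of -0.056. *Naip2*, an inflammasome sensor of the IAP family, read 9.92, not well above background, and 20.1, a log2 ratio of 1.02 (error 0.57, Z-score 0.93). The fold set for dim probes was 1.95. Of the genes above background on both arrays the highest log2 ratio was 0.93 for *Tnf*, the gene of the death ligand and cytokine TNF (ratio 1.91). The lowest was -0.72 (ratio 0.609, error 0.22, Z-score -1.90) for *Mdm4*, whose product inhibits p53, with signals of 120 and 72.9, but its other probe gave 0.11.

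Death ligands, receptors and adaptors outside the 44 genes had the highest median of the lists with more than 3 measured genes, 0.25 over 9 genes. Of these, 8 (88.9%) lay above 0, beside 60.5% of all measured genes. The 9 include *Tnfsf10*, which counts as measured only through its signal in ALDH-positive cells. *Tnf* read 24.2 and 46.2 (log2 ratio 0.93, error 0.30). The TRAIL gene *Tnfsf10* had 8.99 and 15.8, above background in ALDH-positive cells only, with a log2 ratio of 0.82 (error 0.57). Its fold set for dim probes was 1.53. Both read near background, and none of the 9 genes was called. The DNA fragmentation genes *Dffa* and *Dffb* had 0.84 (error 0.23) and 0.65 (error 0.22), with Z-scores of 1.54 and 1.77, but the other *Dffa* probes gave -0.16 and -0.0082.

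**Figure D4:**
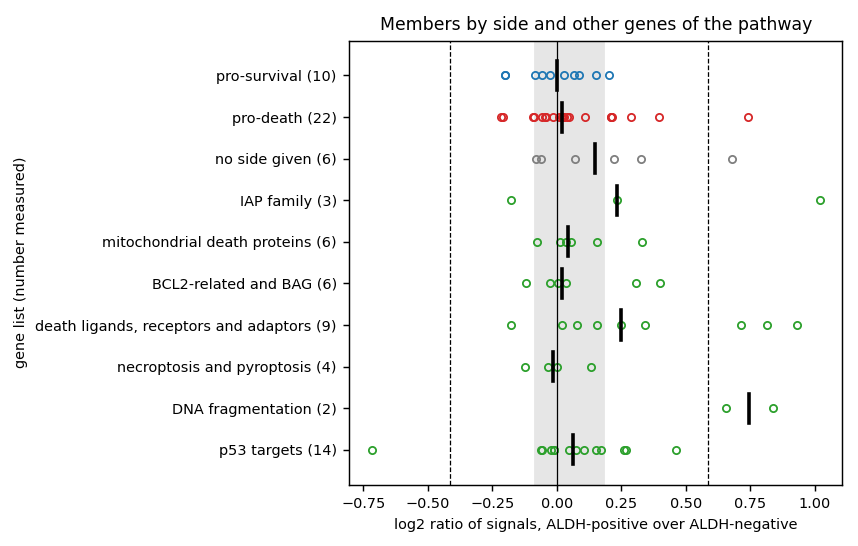
Log2 ratio of signals, ALDH-positive over ALDH-negative cells (horizontal axis) for the measured genes of each side and of 7 of the further lists (circles), with list medians (black bars), the middle range between the quartiles of all measured genes (grey band, -0.084 to 0.18) and dashed lines at the ratios 0.75 and 1.5; *Naip2* and *Tnfsf10*, below background in ALDH-negative cells, are drawn at their measured values. The pro-survival and pro-death medians, 0.0014 and 0.022, lie within the band. The medians of the further IAP (3 genes), DNA fragmentation (2 genes) and death ligand (9 genes) lists lie above it. The IAP and death ligand medians include *Naip2* and *Tnfsf10*, which count as measured only through their signal in ALDH-positive cells. The IAP median is the value of *Birc5*, 0.23, whose other probes gave 0.065 and -0.028. It lies above the band only with *Naip2* counted, since *Naip5* was at -0.18.

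Facts about the arrays as a whole bear on these values as follows. Epithelial markers were well above background in both populations, with log2 ratios from 0.15 to 0.40 over 6 genes and no call. Leukocyte, endothelial and fibroblast markers were measured in 4 of 6, 2 of 4 and 3 of 6 cases, the defining leukocyte marker *Ptprc* was below background on both arrays, and the brightest probes of *Itgam* (-0.94, others 0.38 and -0.67) and *Kdr* (-0.43) were called lower. Of the measured markers, 3 of 4 leukocyte, 1 of 2 endothelial and all 3 fibroblast genes lay below 0. Among them *Cd3e* (-0.47, error 0.20, Z-score -1.93), *Csf1r* (-0.34, error 0.20) and *Col1a1* (-0.70, error 0.33) were not called. Above 0 without a call were *Cd68*, 0.44 (error 0.20, Z-score 2.33) with 0.069 for its other probe, and *Pecam1*, 0.21 (error 0.30). The part of these marker genes in the values above was not tested, and fewer cells of a type cannot be told apart from less RNA per cell. Of 8 ALDH genes listed as active in ALDEFLUOR, 6 were measured, with log2 ratios of the brightest probes from -0.049 to 0.23 and no call. The paper counts more such isoforms than this list holds. The dimmer *Aldh3a1* probe gave 0.62 (error 0.20) beside 0.025 for the brighter one. Spots in the last eighth of rows or of columns carried 12 of the 38 genes (31.6%), among them *Bcl2*, *Mdm2*, *Tnfrsf10b*, *Casp9* and *Ripk1*, beside 23.9% of all measured genes. *Bmf*, *Fas*, *Bax*, *Bok* and *Bak1* lay outside them.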

How the data were processed

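The authors deposited 1 scanner file per population, with Cy3 intensities from Agilent Feature Extraction (9.5.1.1 per the labels and the methods, 10.7.1.1 in the file headers), and 1 table of quantile-normalized intensities for 55681 probes. The processed intensity of each spot was already background-subtracted by that software. Here, control spots and population outliers (135 and 116 spots) were left out, log2 signals of repeated spots were averaged, and the probes were quantile-normalized over both arrays. Measured means well above background on at least 1 array, and the brightest measured probe stands for a gene. For a gene dim on 1 array, a fold was set against the higher of its own dim signal and the lowest signal well above background there. Such a fold leaves out the errors of the signals and is not a lower bound.

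No test was run, since each population had 1 array, whose number limits the precision. The labels name the samples as stem and anti stem cells, and the match to ALDH activity follows the study's design and methods. The members, sides, lists and alternatives were chosen with earlier results of these data known. Named are all members, the pathway genes farthest from 0 and, chosen after their values were seen, the death ligand, mitochondrial, DNA fragmentation, p53 target and marker genes. Values were computed with Python 3.11.15, numpy 2.4.6 and pandas 2.3.3, and normexp with limma 3.58.1, and the selection was tested on simulated data. Some genes of the pathway lists are not reported here. Probes are placed on NCBI37 as the array annotation in the scanner files has it, with no exon or untranslated region given.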

Additional observations from a re-analysis of the deposited data

How the results depend on the processing

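Each value was recomputed with a 75th percentile shift, with normexp or no background correction, from the deposited table, with only the probes above background on both arrays, with the median over all probes of a gene and leaving out spots in the last eighth of rows or columns, a region set apart in earlier work on these arrays. The Z-score was also taken over other windows, and a ratio limit of 1.5 was set both ways. The number of higher genes was 1 after the 75th percentile shift and 1 with a Z-score from 100 probes on either side, *Bmf* in both cases, and 0 under the 9 other choices, including a Z-score from 500 probes on either side or over all probes. No gene was lower under any of the 11. The pro-death median was 0.11 after the 75th percentile shift, where the median of all measured genes was 0.090, and moved by less than 0.076, the repeated-spot SD of a log2 ratio, under the other choices and sides tried. The pro-survival median (-0.025 to 0.046) and the difference between the sides (-0.063 to -0.0050) moved by less than that throughout. Of 38 measured genes, 27 kept their sign over the choices that gave them a value and 11 did not. Of the recomputed gene values, 251 moved by less than the gene's own error, and 6, of *Bmf*, *Casp12* and *Bcl2l11*, moved by more. Many of the 251 could not move. Choices among probes or array regions leave a gene with 1 measured probe unchanged where it keeps a value, and the deposited table was also quantile-normalized. The counts of steady values and signs therefore overstate how far the values were tried. *Bcl2l11* was -0.44 without the spots in that region, where its brighter probe lies. No paired analysis was possible because each population had a single array. Signal over background limits *Casp12* and the 5 genes below background on both arrays.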
